A study of Mus musculus with 2 samples.

Results

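This report describes the genes of receptors that steer migrating leukocytes, as measured in regulatory innate lymphoid cells (ILCregs). The 38 listed genes were chosen by name as receptors for chemokines, lipid chemoattractants and peptide chemoattractants. A listed gene was used where an array feature carried its symbol and no other, which held for 33 of the 38, out of 28279 genes named in this way. Ackr2 and Ackr3 were left out because their features pair the symbol with a second one, and Ltb4r2, Fpr1 and Fpr2 were not analysed here. The 33 measured genes comprise 17 chemokine receptors, 2 atypical chemokine receptors, 10 lipid receptors and 4 peptide receptors.

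The cells came from small intestines of IL-10-GFP knockin mice of the C57BL/6 strain, 8 weeks of age, in which green fluorescent protein reports on interleukin 10, and the submitters give a purity over 95%. All samples share this genotype, and none was treated. The series has 2 arrays of this 1 group, replicate 1 and replicate 2, and no other population was analysed here. The labels name neither the surface gate nor the number of mice, so the spread between the arrays may be technical.

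Chemoattractant receptors are seven-pass membrane proteins that signal mostly through inhibitory G proteins and direct cells along gradients of their ligands. Chemokine receptors bind small secreted proteins, atypical receptors bind chemokines and remove them without this signalling, and lipid receptors sense sphingosine 1-phosphate, oxysterols, leukotrienes or platelet-activating factor. In the small intestine CCR9 and its ligand CCL25 guide lymphocytes to the epithelium, while S1PR1 draws them out of tissue into lymph and blood.

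Values are the authors' signals, taken as log2 from their range because the scale is not stated. They ran from 2.10 to 19.86, and the highest signal of a listed receptor on any array was 12.22. A gene was called above threshold where it exceeded, on each array, the 95th percentile of 1678 olfactory, vomeronasal and taste receptor genes, which was 6.74 for replicate 1 and 6.19 for replicate 2. Of the reference genes themselves 2.44% did so. Features differ in their probes, so signals of different genes are not compared as amounts of transcript. A receptor below the threshold was not distinguishable from the reference signal, which does not show that its transcript was absent. With 1 group and 2 arrays no test between groups was possible, so no p-value is given.

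Of the 33 measured receptor genes, 10 exceeded the threshold on both arrays. These were the chemokine receptor genes Ccr1, Ccr2, Ccr7, Ccr10, Cxcr4 and Cx3cr1, the lipid receptor genes S1pr2, Cysltr2 and Ptafr, and C3ar1, the receptor gene for the complement fragment C3a. Another 6 of the 33 exceeded it on exactly 1 array, a larger share than the 7.53% of all named genes. Of these 6, 4 passed for replicate 2 only, where the threshold was lower. Among all named genes 1954 passed for replicate 2 only and 176 for replicate 1 only. The remaining 17 receptors passed on neither array. The 10 of 33 (30.3%) compare with 31.7% of all named genes and with 38.9% of protein-coding genes outside the reference, so the share itself was near the background. The median signal of the 33 was 5.90, against 5.43 for all named genes and 6.06 for those protein-coding genes. The array of replicate 1 alone put 12 receptors above its threshold and that of replicate 2 alone 14, where the shares of all named genes were 32.3% and 38.6%. At the 99th percentile of the reference 8 receptors passed, against 19.8% of all named genes, and Ccr10 and S1pr2 no longer did. At the 90th percentile 15 passed, against 39% of all named genes. With keratin-associated protein and Rhox genes as the reference 13 passed, against 34.8% of all named genes, and 14 passed when the mean signal was set against the mean threshold, against 35.4%.

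**Figure D1:**
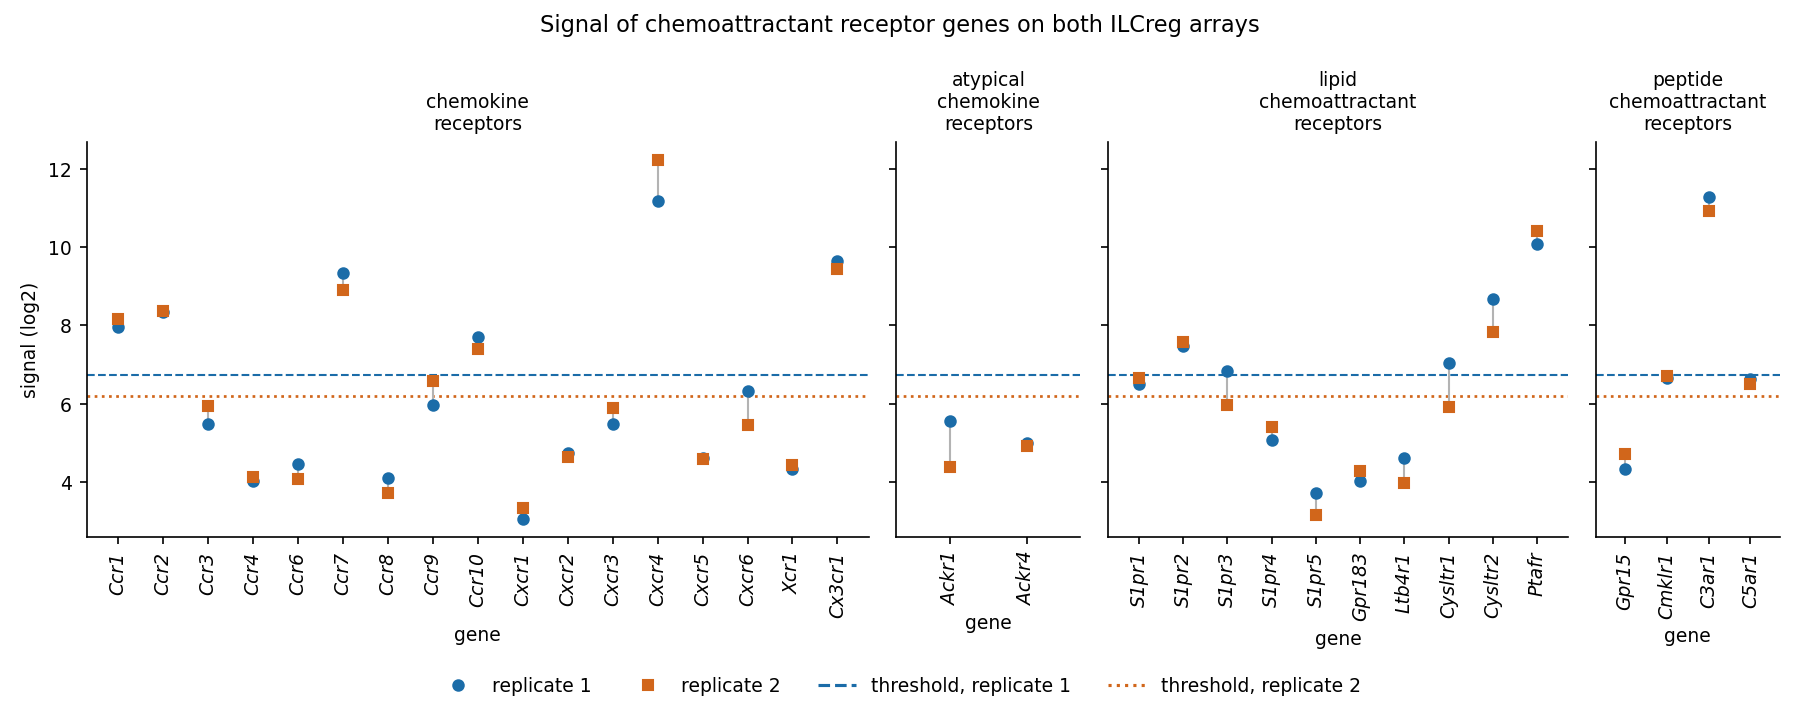
Each of the 33 measured receptor genes is on the x axis, by group, and its log2 signal is on the y axis, with a blue circle for replicate 1, an orange square for replicate 2 and a grey line joining them. The dashed and dotted lines are the thresholds of 6.74 and 6.19, and 10 genes have both symbols above their own line.

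The DNA before the start sites of Cxcr4, Ptafr and C3ar1 is shown because these were the 3 receptor genes whose signal exceeded the threshold by over 3 on the log2 scale on both arrays. Each is the 250 bases before the start in RefSeq's GRCm38.p6 annotation, on the gene's own strand and 5′ to 3′. The Cxcr4 window is chr1:128592300-128592549 on the minus strand, that of Ptafr chr4:132563817-132564066 on the plus strand and that of C3ar1 chr6:122856158-122856407 on the minus strand. Capitals mark every match, on either strand, to the 6 motifs searched.
Cxcr4: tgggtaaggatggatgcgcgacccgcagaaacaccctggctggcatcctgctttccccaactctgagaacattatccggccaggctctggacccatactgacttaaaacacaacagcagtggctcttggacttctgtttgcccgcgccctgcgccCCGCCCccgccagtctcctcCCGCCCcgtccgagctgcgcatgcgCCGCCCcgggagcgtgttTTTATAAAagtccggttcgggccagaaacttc
Ptafr: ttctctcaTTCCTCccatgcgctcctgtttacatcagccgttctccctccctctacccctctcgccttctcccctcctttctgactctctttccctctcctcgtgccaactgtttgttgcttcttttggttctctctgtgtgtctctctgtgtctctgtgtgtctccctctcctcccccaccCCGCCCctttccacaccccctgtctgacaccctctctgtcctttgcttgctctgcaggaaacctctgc
C3ar1: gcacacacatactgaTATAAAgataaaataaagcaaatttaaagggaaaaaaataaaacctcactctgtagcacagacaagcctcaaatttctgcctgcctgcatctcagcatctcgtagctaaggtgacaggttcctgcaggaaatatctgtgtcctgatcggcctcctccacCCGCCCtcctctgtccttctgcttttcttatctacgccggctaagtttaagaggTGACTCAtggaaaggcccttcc

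The motifs were the GC box of Sp and KLF factors (GGGCGG), the TATA box (TATAAA), the PU.1 core (GAGGAA), AP-1 (TGANTCA), the cAMP response element (TGACGTCA) and RUNX (TGTGGT). Cxcr4 held 3 GC boxes, whose first bases lie 95, 75 and 50 bases before the start, and a TATA box 30 bases before it that overlaps a reverse-strand match. C3ar1 held an AP-1 match 22 bases before its start, a GC box match at 76 bases and a TATAAA match at 235 bases. The last lies far from the position of the match in Cxcr4. Ptafr held a GC box match at 68 bases and a PU.1 core match at 242 bases. RefSeq windows were at hand for 28 of the 33 measured receptors, 8 of them above the threshold on both arrays. The GC box stood in 3 of these 8 (Cxcr4, Ptafr and C3ar1), in 4 of the other 20 and in 32.7% of all 32851 promoter windows of this length. The PU.1 core stood in 2 of the 8, in 7 of the 20 and in 23.3% of all windows, and the TATA box in 2, in 2 and in 12.4%. AP-1 was found in 1 of the 8, in 3 of the 20 and in 6.75% of all, and RUNX in 2, in 6 and in 14.0%. The cAMP response element was found before S1pr2 alone among the 28, and in 1.55% of all windows. Matches were counted wherever they lay in the window. They are descriptions of letters and not of binding.

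Among the 9 CC chemokine receptor genes measured, 4 passed on both arrays. Ccr7, whose product brings dendritic cells and naive lymphocytes to lymph nodes along CCL19 and CCL21, gave 9.33 for replicate 1 and 8.90 for replicate 2, a mean of 9.12 ± 0.31 (SD, n = 2). Ccr2, the receptor of inflammatory monocytes for CCL2, gave 8.34 and 8.38 (8.36 ± 0.03, n = 2). Ccr1, a receptor of monocytes and neutrophils for CCL3 and CCL5, gave 7.96 and 8.16 (8.06 ± 0.14). On both arrays these 3 genes exceeded the threshold by 1.22 or more. Ccr10, which binds the mucosal chemokine CCL28 and is known from IgA plasma cells, gave 7.72 and 7.40 (7.56 ± 0.23), exceeding the thresholds by 0.97 and 1.21.

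Ccr9, the small intestinal homing receptor, exceeded the threshold only for replicate 2, with 5.96 for replicate 1 and 6.58 for replicate 2. These values stood above 87.2% and 96.9% of the reference genes, so the call for this gene depended on the array. The other CC receptor genes stayed below the threshold on each array. Ccr3, the eotaxin receptor of eosinophils, gave 5.48 and 5.94. Ccr6, the CCL20 receptor of many type 3 innate lymphoid cells, gave 4.46 and 4.09. Ccr4, a receptor of type 2 and regulatory T cells, gave 4.03 and 4.13, and Ccr8, found on the same kinds of T cell, gave 4.12 and 3.72. At most 45.9% of the reference genes were lower than Ccr4, Ccr6 or Ccr8 on either array, which places these genes inside the bulk of the reference.

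Of the CXC chemokine receptor genes, Cxcr4 alone passed among 6 measured. Cxcr4, which binds CXCL12 and retains cells in bone marrow and stroma, gave 11.18 for replicate 1 and 12.22 for replicate 2 (11.70 ± 0.73, n = 2). Both values exceeded all 1678 reference genes, and the mean lay 5.23 above the mean threshold. Cxcr6, the CXCL16 receptor of tissue-resident lymphocytes, gave 6.33 and 5.47, below the threshold on each array by 0.42 and 0.72. Cxcr3, the receptor of type 1 lymphocytes for the interferon-induced chemokines CXCL9 and CXCL10, gave 5.48 and 5.90, also below on each. Cxcr6 and Cxcr3 therefore lay in the upper part of the reference, above 80.3% or more of its genes on every array, without passing.

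The remaining CXC receptors were inside the reference. Cxcr2, a neutrophil receptor for CXCL1 and CXCL2, gave 4.75 and 4.65, and its paralog and neighbour on chromosome 1, Cxcr1, gave 3.07 and 3.35. Cxcr1 exceeded only 0.24% and 1.91% of the reference genes. Cxcr5, the CXCL13 receptor of follicular B and T cells, gave 4.62 and 4.60. Cx3cr1, the fractalkine receptor of intestinal macrophages and monocytes, was above the threshold with 9.64 and 9.44 (9.54 ± 0.14, n = 2), exceeding it by 2.89 and 3.25. Xcr1, a receptor of cross-presenting dendritic cells, gave 4.33 and 4.44 and did not pass.

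Chromosome 9 holds 13 of the 33 measured genes, and 4 of these passed on both arrays (Ccr1, Ccr2, Cx3cr1 and S1pr2). This share was near the 30.3% of all measured receptors and the 31.7% of all named genes. Not all neighbouring receptor genes there agreed in their calls. Cx3cr1 passed and its neighbour Ccr8 did not, Ccr1 passed beside Xcr1, and Ccr2 passed beside Ccr3. The neighbours Cxcr6 and Xcr1 agreed, both staying below the threshold on each array. Receptors of 1 family have related coding sequences, and probe sequences were not used here, so signal shared between paralogs was not tested.

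Neither of the 2 measured atypical chemokine receptor genes passed. Ackr1, which carries chemokines across venular endothelium, gave 5.55 for replicate 1 and 4.39 for replicate 2. Ackr4, a scavenger of CCL19, CCL21 and CCL25 on stromal and lymphatic cells, gave 5.005 and 4.91. Ackr1 differed between the arrays and Ackr4 did so little (-0.04 after centring), and both were below the threshold throughout.

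The sphingosine 1-phosphate receptor genes were split, with 1 of 5 above on both arrays. S1pr2, which restrains migration and confines B cells to germinal centres, gave 7.47 and 7.57 (7.52 ± 0.07, n = 2), above the thresholds by 0.73 and 1.38. S1pr1, the egress receptor, gave 6.50 and 6.66 and passed only on the array of replicate 2. S1pr3, found on endothelium and stroma, gave 6.85 and 5.98 and passed only on that of replicate 1. S1pr4, a leukocyte receptor, gave 5.08 and 5.42, and S1pr5, the egress receptor of natural killer cells, gave 3.72 and 3.16. On the array of replicate 2, 0.30% of reference genes were lower than S1pr5.

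Genes that control S1PR1 were measured too. Klf2, the transcription factor that drives S1pr1 in lymphocytes, gave 6.40 and 6.12, below the threshold on each array. Cd69, whose product binds S1PR1 and takes it off the surface, gave 10.80 and 10.78 and passed on both. The arrays carry no measure of surface S1PR1.

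Of the receptors for leukotrienes, oxysterols and platelet-activating factor, Ptafr and Cysltr2 passed. Ptafr, the platelet-activating factor receptor of macrophages and granulocytes, gave 10.07 and 10.41 (10.24 ± 0.24, n = 2). Cysltr2, a receptor for cysteinyl leukotrienes, gave 8.68 and 7.84 (8.26 ± 0.59). Cysltr1, the other cysteinyl leukotriene receptor, gave 7.05 and 5.92, passing only on the array of replicate 1. Ltb4r1, the high-affinity leukotriene B4 receptor of neutrophils and effector T cells, gave 4.62 and 3.97. Gpr183, the oxysterol receptor that positions type 3 innate lymphoid cells in intestinal lymphoid tissue, gave 4.04 and 4.29. At most 53.5% of the reference genes were lower than Ltb4r1 or Gpr183 on either array.

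Among the 4 peptide receptors, C3ar1 was far above the threshold and 2 others were close to it. C3ar1 gave 11.27 and 10.93 (11.10 ± 0.24, n = 2), above every reference gene on each array. C5ar1, the receptor for the complement fragment C5a, gave 6.64 and 6.51. Cmklr1, the chemerin receptor of macrophages and plasmacytoid dendritic cells, gave 6.67 and 6.72. C5ar1 and Cmklr1 passed with replicate 2, and with replicate 1 missed by 0.11 and 0.08. C5ar1 passed at the lower of its 2 signals, because the threshold was 6.19 for replicate 2 and 6.74 for replicate 1. Gpr15, a homing receptor of large intestinal T cells, gave 4.33 and 4.71 and was not above on either.

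The arrays differed by more than 1 on the log2 scale, after the median difference of all named genes was removed, for 3 of the 33 receptors. Cxcr4 was higher on the array of replicate 2 by 1.09, in a direction and size that 1.48% of all named genes and 2.18% of those above the threshold reached. Ackr1 and Cysltr1 were lower there, with differences of -1.11 and -1.08, as 1.97% of all named genes were to this extent. In either direction the share was 3.45% of all named genes, and it was 4.16% of the genes that passed on both arrays, where 1 of the 10 receptors (Cxcr4) reached this size. The next differences were those of S1pr3 (-0.82), Cxcr6 (-0.81), Cysltr2 (-0.79) and Ccr9 (0.66). Over the 33 receptors 17 were higher for replicate 2 and 16 for replicate 1, with a median of 0.02, so the set as a whole did not lean to either array. Each is the difference of only 2 arrays, with nothing to check it against. The pooled replicate SD of the receptors was 0.36, against 0.31 over all named genes.

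**Figure D2:**
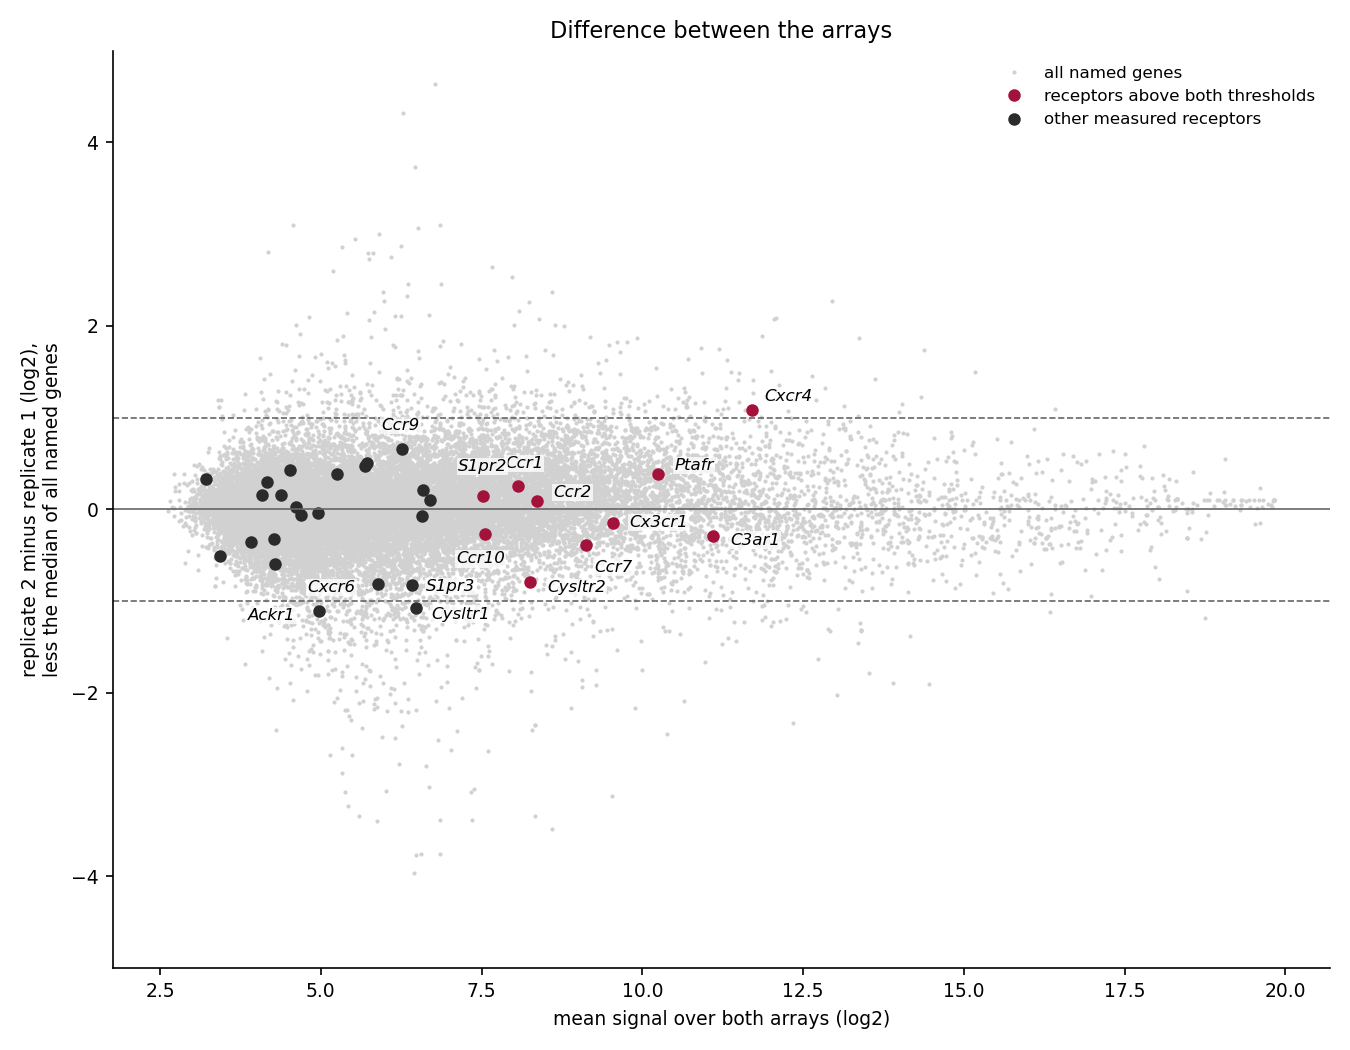
The x axis is the mean log2 signal of a gene and the y axis its difference, replicate 2 minus replicate 1, less the median of all named genes. Grey points are all named genes, red points the 10 receptors above both thresholds and black points the other 23. Cxcr4 at 1.09, Ackr1 at -1.11 and Cysltr1 at -1.08 lie outside the dashed lines at 1 and -1.

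Chemokine genes were measured on the same arrays, and 21 of 33 passed on both (63.6%), with a median signal of 8.13. The share was 31.7% for all named genes and 38.9% for protein-coding genes outside the reference. The highest were Cxcl16, the ligand of CXCR6, with 13.46 and 13.95, and the neutrophil chemokine gene Cxcl2, with 13.73 and 13.62. The lowest were Ccl1 (3.91 and 3.97) and Cxcl11 (3.90 and 4.32). For 15 receptor genes at least 1 listed ligand gene was measured. In 4 of these the receptor and a ligand both passed, in 7 only a ligand did, in 1 only the receptor and in 3 neither. Taken singly, 30.3% of the measured receptors and 63.6% of the chemokine genes passed. A receptor with more listed ligands has more genes that can pass. The counts were not set against those of unrelated gene pairs, so they do not show that receptors and ligands go together.

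The 4 pairs with both above were Ccr1, Ccr2, Ccr10 and Cxcr4. Ccl3 gave 11.40 and 11.32 and Ccl6 gave 10.35 and 10.58 as ligand genes of Ccr1, with Ccl5 (7.49 and 6.95) and Ccl9 (7.70 and 7.43) passing at lower signals. Ccl2, for Ccr2, gave 13.39 and 13.58 and Ccl7 10.30 and 9.46, while Ccl12 (5.12 and 5.87) did not pass. Ccl28, for Ccr10, gave 8.51 and 8.12, while Ccl27a, its skin ligand, did not pass (5.64 and 5.71). Cxcl12, for Cxcr4, gave 8.32 and 8.86. The reverse case was Cx3cr1, which passed although its ligand gene Cx3cl1 did not (5.32 and 5.76).

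In the other direction, ligand genes passed where their receptors did not. Ccl25 gave 8.62 and 8.54, with Ccr9 above on 1 array only. Cxcl9, for Cxcr3, gave 11.51 and 11.08, and Cxcl13, for Cxcr5, gave 10.40 and 9.36. Cxcl10, also for Cxcr3, gave 9.37 and 9.54. For Cxcr2, Cxcl1 (9.50 and 9.15) and Cxcl3 (8.24 and 8.03) passed beside Cxcl2, and Cxcl5 (6.46 and 6.25) did so for replicate 2 only. Ccl11, for Ccr3, gave 9.79 and 9.77 and Ccl24 4.90 and 4.64, and Ccl8, for Ccr8, gave 10.55 and 10.73. Neither Ccr6 nor its ligand gene Ccl20 (6.32 and 6.88, above on 1 array) passed on both. The same held for Ccr4 with Ccl17 (5.95 and 5.97) and Ccl22 (5.31 and 5.16), and for Xcr1 with Xcl1 (6.24 and 6.31). The arrays do not tell whether a receptor and a ligand came from the same cell.

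**Figure D3:**
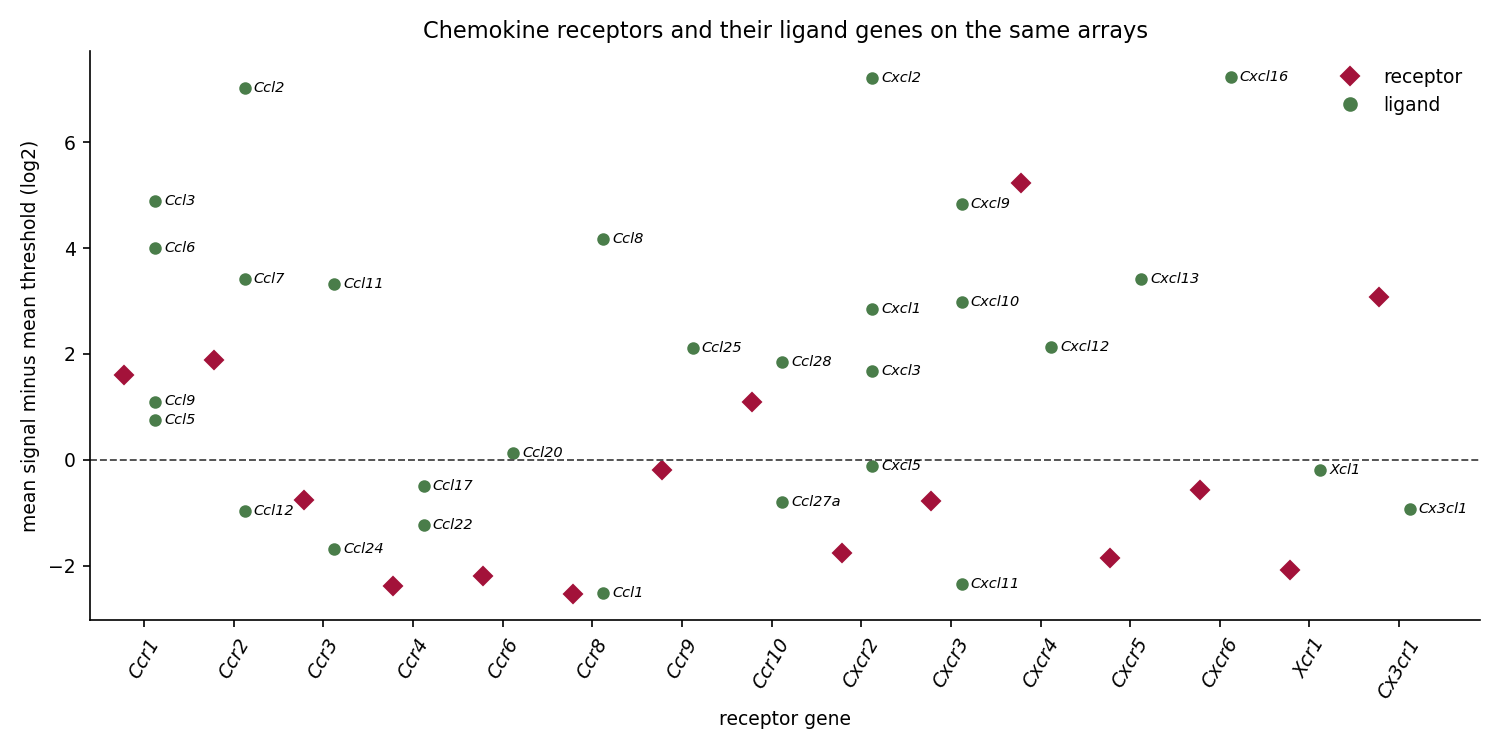
For 15 receptor genes on the x axis, the y axis gives the mean signal minus the mean threshold on the log2 scale, with diamonds for receptors and circles for their measured ligand genes. Points are means over 2 arrays and are to be read against the dashed line at 0 rather than against each other, since each gene has its own probes; points just above it (Ccl20) need not pass on both arrays.

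Enzymes that make or remove the lipid ligands passed in part. Of 9 genes for sphingosine 1-phosphate and oxysterols 4 passed on both arrays (44.4%, against 38.9% of protein-coding genes outside the reference). The lipid phosphatase gene Plpp3 (12.60 and 13.68) and the lyase gene Sgpl1 (9.24 and 8.96) were highest. The exporter genes Mfsd2b (4.66 and 4.67) and Spns2 (5.53 and 5.64) were lowest and did not pass. Of 9 leukotriene and platelet-activating factor genes 5 passed (55.6%), led by the phospholipase A2 gene Pla2g4a (10.18 and 10.56) and the platelet-activating factor hydrolase gene Pla2g7 (9.81 and 9.76). Ltc4s, which makes cysteinyl leukotrienes, was lowest with 3.47 and 3.39, followed by Pafah2 (4.74 and 4.72). Alox5, the first enzyme of leukotriene synthesis, gave 5.32 and 4.77 and did not pass, whereas its partner Alox5ap did (8.54 and 8.20). Among peptide ligands Rarres2, which encodes chemerin, gave 12.20 and 11.97, and Hc, which encodes complement C5, gave 4.31 and 4.14.

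Signalling genes shared by these receptors were measured too. Of 14 genes for G proteins and their effectors 12 exceeded the threshold on both arrays (85.7%, where protein-coding genes outside the reference gave 38.9%), with Gna13 (12.83 and 13.23) and the leukocyte GTPase gene Rac2 (12.75 and 12.99) highest. Gnai2, the main inhibitory G protein of leukocyte chemotaxis, gave 12.61 and 12.66. Gna15 (4.90 and 4.94) and the phospholipase gene Plcb2 (6.09 and 6.13) did not pass. Of 5 measured genes for receptor kinases, arrestins and egress regulators 3 passed (60%), with Arrb1, an arrestin that binds activated receptors, at 9.67 and 9.25. The kinase gene Grk3 gave 6.06 and 6.30 and passed on 1 array.

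The label of the cells was set against marker genes. Il10 gave 10.59 and 11.05, the leukocyte gene Ptprc 12.28 and 12.14, and Id2, needed by innate lymphoid cells, 12.23 and 11.93. Of 12 leukocyte and innate lymphoid genes 8 passed, and the natural killer genes Ncr1 (4.63 and 4.71) and Eomes (5.54 and 4.82) were lowest. Markers of other cells passed as well: 8 of 8 for macrophages and monocytes, 4 of 6 for T cells, 2 of 4 for B cells, 3 of 4 for plasma cells, 3 of 7 for dendritic cells, 6 of 6 for epithelium, 5 of 5 for stroma and 4 of 7 for endothelium. Of 9 granulocyte and mast cell genes 3 passed. Of protein-coding genes outside the reference 38.9% passed. The shares for dendritic cells (42.9%), granulocytes and mast cells (33.3%) and B cells (50%) were not far from this. These counts alone do not show such cells. In epithelium Krt8 (15.42 and 15.76) and Cdh1 (12.49 and 12.65) were highest and Vil1 (10.65 and 10.22) and Lgals4 (11.50 on both) lowest. In stroma Dcn gave 19.28 and 19.34, and Dpt gave 19.80 and 19.86, among the 99 and 85 features within 0.001 of the highest value of each array. Genes used as markers of several cell types thus gave signal beside the receptors in this sorted sample. Whether such cells were present was not tested. Fewer cells of a type cannot be told apart from less RNA per cell.

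Receptors known from macrophages and monocytes (Ccr1, Ccr2, Cx3cr1, Ptafr and C3ar1) passed on arrays where Lyz2 gave 14.76 and 14.66, C1qb 12.20 and 12.55, Fcgr1 8.16 and 7.24 and Mertk 7.31 and 7.34. Cmklr1 and C5ar1, also known from these cells, passed for replicate 2 only. The log2 of the summed signal of the 8 macrophage and monocyte genes was 15.16 and 15.19, most of it from Lyz2. Such sums are not compared between cell types, since the lists differ in genes and probes. Ccr7, known from dendritic cells and lymphocytes, passed beside H2-Aa (14.01 and 14.28), Itgax (9.23 and 8.97), Cd3e (9.68 and 9.90) and Cd3g (8.97 and 9.25), while Flt3 (5.28 and 5.003), Zbtb46 (5.40 and 5.41), Cd247 (5.32 and 4.94) and Cd8a (5.33 on both) were below. The log2 summed signal was 14.10 and 14.35 for the 7 dendritic cell genes, close to that of H2-Aa alone, and 11.03 and 11.21 for the 6 T cell genes. For B cells it was 8.22 and 8.51, where Cd79a (6.76 and 7.41) and Cd79b (7.10 and 7.13) passed, Pax5 (4.86 on both) and Fcer2a (4.58 and 4.73) did not, and Cxcr5 did not. Ccr10 passed beside the plasma cell genes Jchain (17.47 and 18.11) and Xbp1 (13.24 and 13.76), with Sdc1 at 7.13 and 7.51 and Tnfrsf17 (6.38 and 5.54) below, and the log2 sum, close to Jchain alone, was 17.55 and 18.18. The part of these cells in the receptor signals was not tested.

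Among receptors known from granulocytes, Ccr3, Cxcr1, Cxcr2 and Ltb4r1 were below the threshold on each array, while Ccr1 and Ptafr passed. This set leaves out C3ar1 and C5ar1, which were grouped with macrophages and monocytes above. Epx (3.79 and 3.56) and Fcer1a (3.92 and 4.07) were the lowest granulocyte and mast cell genes, and Prg2 (8.18 and 8.95), S100a9 (7.90 and 6.70) and the neutrophil receptor gene Csf3r (6.94 and 7.01) passed. Cxcr4 passed on arrays where collagen genes were also higher for replicate 2: Col3a1 gave 11.06 and 13.10 and Col1a2 10.94 and 12.78. The 5 measured stromal genes had a median centred difference of 1.74, with Dcn and Dpt at 0.11 each. Dpt lay at the highest value of each array, and before centring Dcn differed by 0.058, as the highest values themselves did. The differences of Dcn and Dpt therefore do not show whether their transcripts differed between the arrays. In the other marker lists the median centred difference ran from -0.18 for granulocyte and mast cell genes to 0.50 for plasma cell genes. It was 0.24 for macrophages and monocytes and 0.16 for T cells. The part of stromal or other cells in the Cxcr4 difference was not tested. Ackr1, an endothelial receptor, was below the threshold, where Eng (8.04 and 8.71) and Pecam1 (7.89 and 8.09) passed and Plvap (4.66 and 4.33) and Kdr (5.76 and 5.87) did not.

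**Figure D4:**
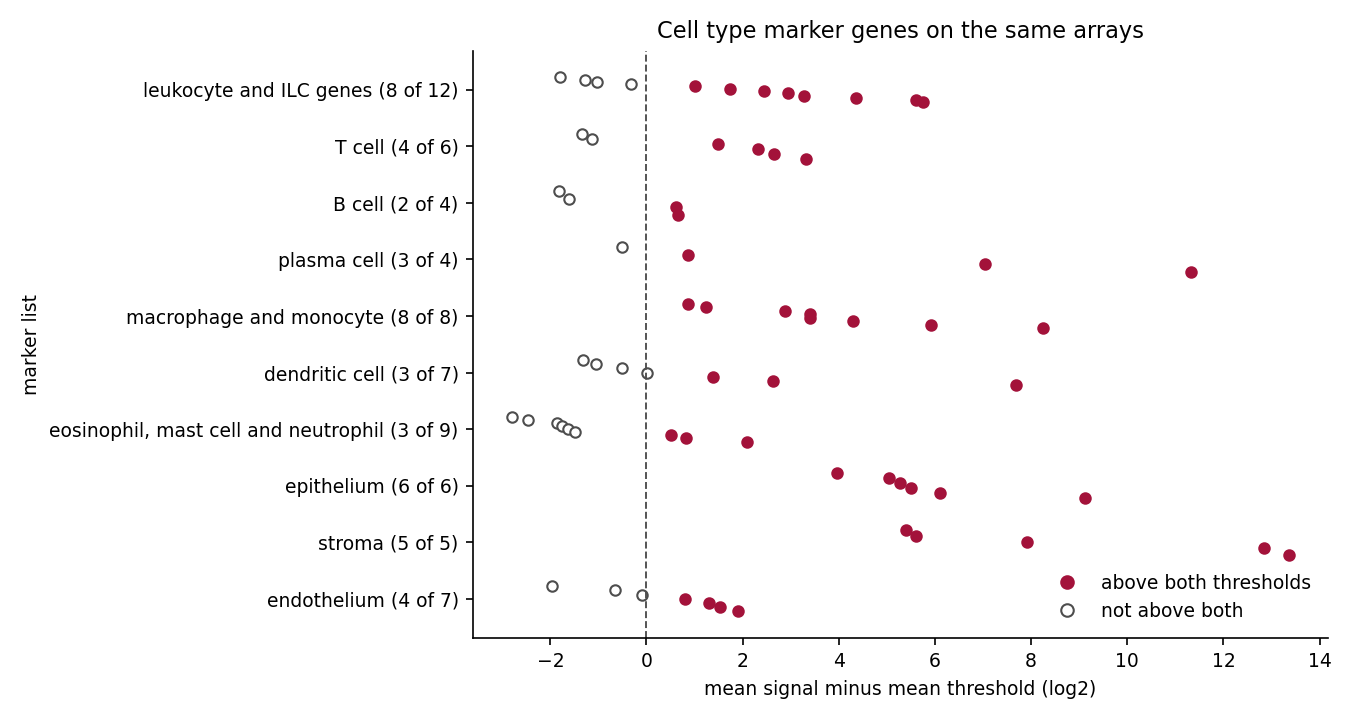
Each row is a marker list with the number of its measured genes above both thresholds, and each point is a gene, placed by its mean signal minus the mean threshold on the log2 scale. Filled points passed on both arrays, which held for all 8 macrophage and monocyte genes, all 6 epithelial genes and all 5 stromal genes.

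Other genes overlap 13 of the 33 receptor genes in the GRCm38.p6 gene table, including 3 of the 10 that passed. Ccr10 overlaps Cntnap1, which was low (4.79 and 4.83), and Cx3cr1 overlaps the noncoding gene Gm33858, not analysed here. Cysltr2 overlaps the transcribed pseudogene Gm9199, which passed with 6.86 and 6.66. Signal shared between overlapping genes was not tested. The receptor genes Cxcr5, Ackr1 and Gpr183, which did not pass, overlap genes that did (Bcl9l, Cadm3 and Ubac2).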

How the data were processed

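Gene expression was measured on 2 whole-transcript arrays of sorted ILCregs, grouped by the labels. The deposited table holds 1 signal per feature and array, taken here as log2 from the range of the values. How the authors made these values is known only from the submitters' processing notes, which name MAS5, with no role; their log base, summarization, scaling and build are not stated. Of 61344 features, 28573 carried 1 symbol, 2014 several and 30757 none. Symbols were updated through Entrez identifiers in RefSeq's table for GRCm38.p6 (789 changed). Where a gene had several features the one of highest mean signal was used; each of the 33 receptors had 1. The threshold was the 95th percentile of the reference genes on each array, which 2.44% of the reference genes exceeded on both. Differences were centred on the median difference of all named genes (-0.05). Medians over all features were 5.02 and 4.90. The number of arrays limits the precision.

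The steps were run in Python 3.11.15 with pandas 2.3.3 and numpy 2.4.6 and tested on simulated data. Alternatives covered the percentile, the reference genes, the symbols, the choice of feature, centring, quantile normalization and leaving out each array. The receptors and gene lists were chosen with earlier results of these data known. All measured receptors are named, with the 2 highest and 2 lowest genes of each list and the paired ligands; Gnai2, Alox5, Alox5ap, Il10 and the overlapping genes were named after their values were seen.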

Additional observations from a re-analysis of the deposited data

How the results depend on the processing

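The counts of receptors, pathway genes and marker genes above the threshold stayed within 1.5 times their value under the alternatives run. For the receptors the main count was 10, and it was 15 at the 90th percentile of the reference (39% of all named genes), 8 at the 99th (19.8%), 13 with keratin-associated protein and Rhox genes as the reference (34.8%) and 14 when the mean signal was set against the mean threshold (35.4%). It was 10 with medians over features and with the platform's own symbols. At the 99th percentile Ccr10 and S1pr2 fell below the threshold, with a smaller margin of -0.19 and -0.44. At the 90th, S1pr1, S1pr3, Cysltr1, Cmklr1 and C5ar1 passed as well. Without replicate 1 or replicate 2 the count was 12 to 14 and the median signal of the receptors 5.92 to 5.96. Cxcr4, Ackr1 and Cysltr1 differed by over 1 under all 4 alternatives for centring, normalization and features, and the split of the 33 receptors turned to 16 and 17 without centring. Pathway genes gave 46, 53 and 33, and marker genes 46, 49 and 34, at the 95th, 90th and 99th percentiles. No paired analysis was possible because the series holds 1 group. Values near the threshold, such as those of C5ar1 and Cmklr1, cannot be placed on either side of it with 2 arrays.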
